A study of Coturnix japonica with 144 samples.

Results

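The 200 genes described here were those with the largest excess of male over female transcript in all 3 sampled regions of the Japanese quail brain, namely the BnST (bed nucleus of the stria terminalis), the Tn (nucleus taeniae) and the whole hypothalamus. They were chosen on measured values. Counts were scaled to the total count of each library (CPM, counts per 1000000 counted), genes with a mean male CPM of at least 2 in every region were kept, and the log2 ratio of mean male CPM to mean female CPM, each with 0.1 CPM added, was taken in each region. Genes were ranked by the lowest of their 3 ratios, and the first 200 of the 12747 genes past the CPM floor, out of 21561 in the table, were taken. The sex difference of these genes is therefore given as a description and was not tested.

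The study asked how gene expression in the brain relates to parental behaviour. Adult quail of both sexes, held on short days so that they were reproductively quiescent, spent a night shut in a wooden box either with chicks (sensitized birds) or without (control birds), and then met unfamiliar chicks before the brain was taken. The 3 regions were punched from frozen sections of 48 birds, which gave 144 libraries. Each punch is a bulk sample that can hold neighbouring tissue, so fewer cells of a type and less RNA per cell cannot be told apart. After bird 17 was left out, as the rule required, there were 8 control males, 12 sensitized males, 16 control females and 11 sensitized females in each region. All birds met unfamiliar chicks. Before the experiment adults were caged in groups of their own sex, so the sex difference and the group housing cannot be told apart.

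In birds the male carries a pair of Z chromosomes, whereas the female carries a single Z and a W. Unlike the X chromosome of mammals, the avian Z is not silenced as a whole in the sex that has the extra copy, and compensation between the sexes is known from chicken and other birds to be partial and to differ from gene to gene. Many genes expressed more in males than in females, in brain and elsewhere, are therefore Z-linked in birds. The chromosome of the quail genes described here was not analysed, because the table names genes by Ensembl identifier and no annotation used here pairs them with positions. The study's tables of genes hold 21 identifiers, none of which belongs to a member. Members are called by their rank in the list, and a few by identifier.

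Libraries held 9664414 to 19640873 counts, with a median of 12636688, and no 2 libraries of a region were identical. UCN3, the urocortin 3 gene, which encodes a neuropeptide of the corticotropin-releasing family, had a median of 30.3, 3.56 and 0.230 CPM in hypothalamus, BnST and Tn. Its range was 13.9 to 61.8 CPM in the hypothalamus, 0.240 to 32.4 CPM in the BnST and 0 to 20.4 CPM in the Tn, so that some BnST and Tn libraries lay within the hypothalamic range. Other regional markers were not analysed here. Bird 17, labelled as a sensitized male, went against its label in these genes, and its values are given with those of the other birds. In the BnST, the library of bird 49 (a male that had been sensitized) stood apart from the rest, and counts that rest on it are given with and without it.

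Most of the 200 genes had a male excess of less than 2-fold, and its size was alike in the 3 regions. The median log2 ratio was 0.84, 0.82 and 0.84 in hypothalamus, BnST and Tn, which correspond to 1.796-fold, 1.77-fold and 1.79-fold more transcript in males. Over all 12747 genes past the floor the medians were 0.00, -0.02 and -0.01. Among members the ratio ran from 0.60 to 1.79 in the hypothalamus, from 0.60 to 1.35 in the BnST and from 0.60 to 1.53 in the Tn, with the lower ends set by the rule. The middle 50% of members lay between 0.75 and 0.91 in the hypothalamus, between 0.73 and 0.90 in the BnST and between 0.76 and 0.91 in the Tn.

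A ratio of 2-fold or more was reached by 9 members in the hypothalamus, against 0.0706% of all genes past the floor, by 13 in the BnST, against 0.126%, and by 10 in the Tn, against 0.133%. Without bird 49 the BnST count was 9 members, against 0.0863% of all genes. Since the rule used these ratios, the counts only describe its outcome. In all 3 regions together 3 members reached 2-fold (0.0235% of all genes), 7 did so in 2 regions and 9 in a single region. The other 181 members stayed under 2-fold in every region. The 3 members were ranks 1, 2 and 3, and the count was 2 without bird 49 and 0 with 1 CPM added in place of 0.1.

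The list did not end at a gap. The lowest of the 3 ratios, on which genes were ranked, was 0.598, 0.597 and 0.596 for the last 3 members and 0.595, 0.594 and 0.593 for the 3 genes ranked next. Above 0, genes grew steadily fewer along this measure up to 0.7, with 95 genes between 0.2 and 0.3, 64 between 0.5 and 0.6 and 51 between 0.6 and 0.7. There were then 63 genes between 0.7 and 0.8, 56 between 0.8 and 0.9, 24 between 0.9 and 1 and 3 above 1. In the opposite direction, counted over the 12726 genes with a mean female CPM of at least 2 in each region, 12 genes were higher in females by 0.6 or more in all 3 regions, against 197 higher in males by as much. Above 2-fold the counts were 4 genes higher in females and 3 higher in males.

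**Figure D1:**
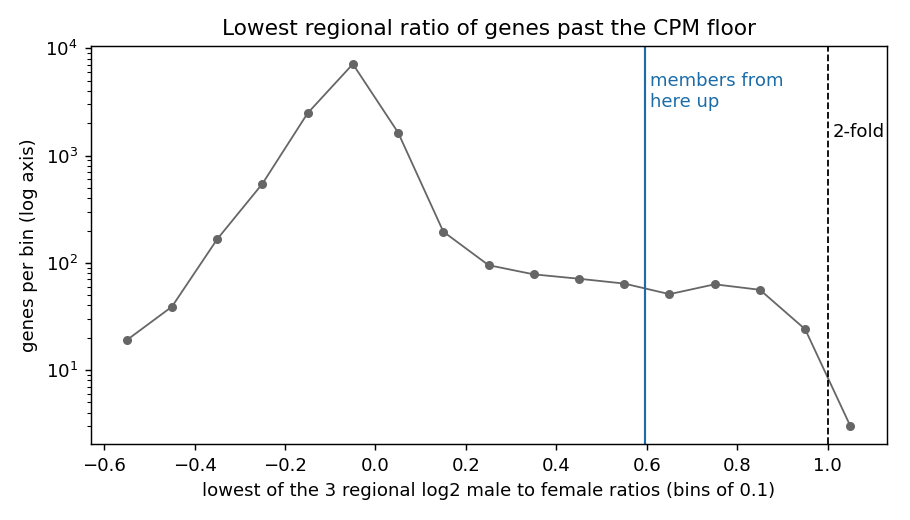
Number of genes, on a log axis, in bins of 0.1 of the lowest regional log2 male to female ratio, for genes past the CPM floor with a ratio of -0.6 or more. The blue line marks the lowest member, at 0.596, and the dashed line marks 2-fold; the 63 and 56 genes between 0.7 and 0.9 form a shoulder above the 51 genes of the bin before them.

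Rank 1, ENSCJPG00005006619, showed the largest lowest ratio of the list. In the hypothalamus its level was 20.5 CPM in the lowest male, 30.8 in the median male and 35.7 in the highest, and 11.1, 14.5 and 19.1 CPM in the lowest, median and highest female, so that the sexes did not overlap. In the BnST the males ran from 26.3 through a median of 59.2 to 146.8 CPM and the females from 10.4 through 21.4 to 84.5 CPM. In the Tn the males ran from 12.3 through 23.6 to 77.8 CPM and the females from 5.95 through 9.70 to 23.3 CPM. Both sexes overlapped in these regions, although all 20 males lay above the female median in each of the 3. The ratios were 1.03, 1.22 and 1.32.

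Rank 2, ENSCJPG00005012744, was steadier between regions. Its mean was 15.04 ± 1.98 CPM in males (SD, n = 20) and 7.24 ± 1.35 CPM in females (SD, n = 27) in the hypothalamus, 14.3 ± 2.55 and 7.07 ± 1.27 CPM in the BnST, and 14.3 ± 1.79 and 7.01 ± 1.06 CPM in the Tn. Its ratios of 1.044, 1.011 and 1.021 differed by 0.033 at most. Rank 3 was a gene of low abundance, with male means of 3.01, 5.37 and 2.35 CPM and female means of 1.44, 2.32 and 0.978 CPM in the hypothalamus, BnST and Tn. Ranks 4 to 10 had lowest ratios between 0.94 and 0.97, and 6 of these 7 had every male above every female in all 3 regions. Of all genes past the floor 0.604% did so, and these ranks were chosen on the sex ratio in the same libraries.

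Rank 5 illustrates the separation of the sexes in an abundant gene. In the hypothalamus its level was 1119 CPM in the lowest male, 1166 in the median male and 1238 in the highest, and 542.8, 596.6 and 684.2 CPM in the corresponding females. In the BnST the males ran from 1070 through 1212 to 1605 CPM and the females from 571.8 through 634.0 to 694.9 CPM. In the Tn the males ran from 1130 through 1251 to 1357 CPM and the females from 564.7 through 640.4 to 736.4 CPM. No male overlapped any female in any region, and the 3 ratios, 0.97, 0.96 and 0.96, differed by 0.010.

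For many members the sexes formed separate clusters. Every male was above every female for 123 members in the hypothalamus, against 1.29% of all genes past the floor, for 79 in the BnST, against 0.714%, for 116 in the Tn, against 1.14%, and for 71 members in all 3 regions, against 0.604%. These shares follow from the rule, which used the same libraries. Without bird 49 the counts were 106 in the BnST, against 1.09% of all genes, and 92 in all 3 regions, against 0.863%. The median difference between the sexes came to 4.47, 3.64 and 4.03 within-sex standard deviations of the log2 level in hypothalamus, BnST and Tn. A further 18, 34 and 12 members in the respective regions had a single male within the female range, for which shares over all genes are not given.

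Overlap of the sexes was more common among members of low abundance. Of the 47 members with a mean male level under 10 CPM, 1 had every male above every female in all 3 regions, whereas 32 of the 96 members from 10 to 50 CPM and 38 of the 57 at or above 50 CPM did. Shares over all genes in the same level classes are not given, so these counts describe members alone and were not tested. The median ratio rose less between these classes, from 0.78 to 0.85 and 0.86 in the hypothalamus, from 0.77 to 0.83 and 0.88 in the BnST and from 0.84 through 0.83 to 0.88 in the Tn. In males the members resembled in level the genes they were drawn from, with a median of 28.4 CPM in the hypothalamus against 30.3 CPM for all genes past the floor, 27.4 against 28.97 CPM in the BnST and 26.3 against 28.9 CPM in the Tn. In females they lay lower, which follows from a rule that set the floor on male CPM and chose on the sex ratio. The female medians were 15.4 against 29.9 CPM in the hypothalamus, 15.1 against 28.8 in the BnST and 14.2 against 28.5 in the Tn.

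**Figure D2:**
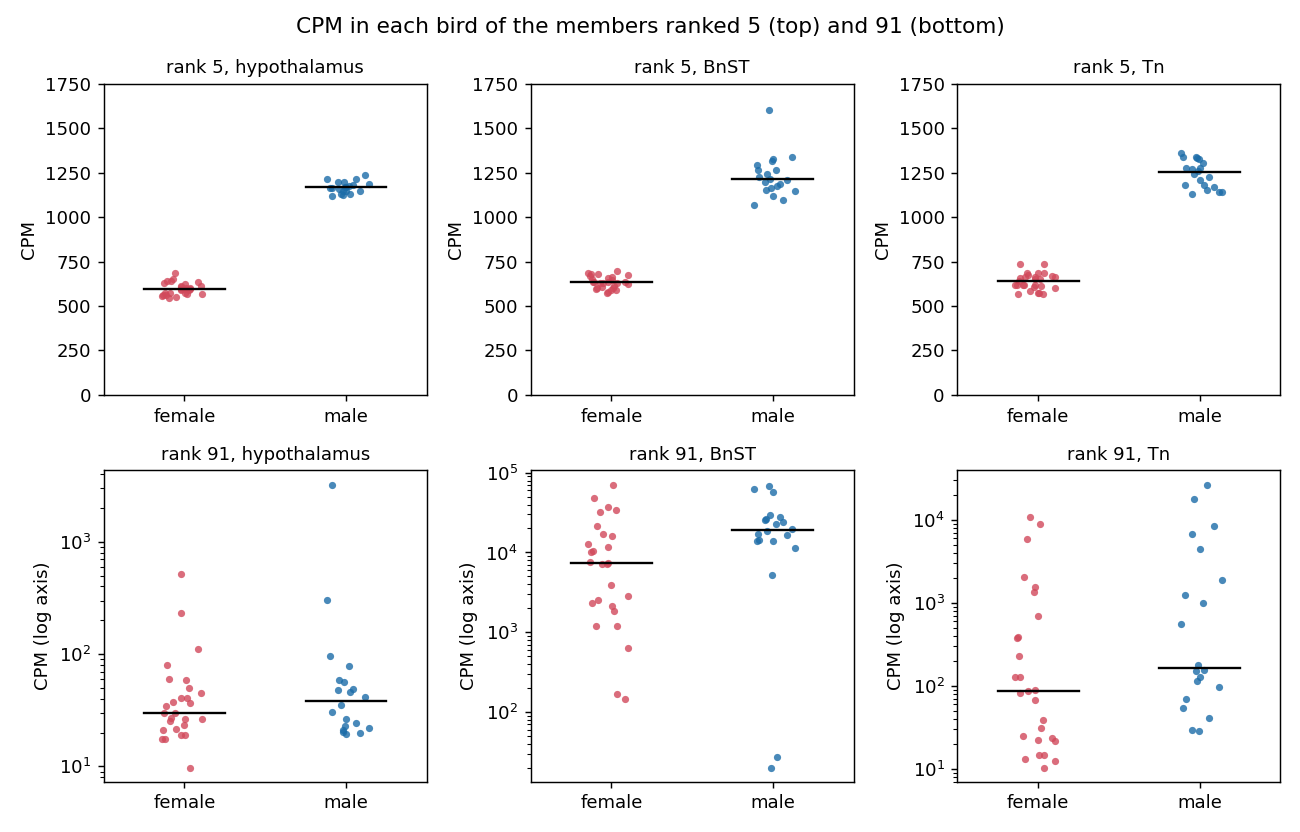
CPM of the members ranked 5 (top, linear axis) and 91 (bottom, log axis) in each of 27 females and 20 males of the hypothalamus, BnST and Tn; a point is a bird and a bar is the median. For rank 5 all males lie above all females in each region, whereas for rank 91 the sexes share nearly the whole range, from 20.02 to 68479 CPM in males and from 143.6 to 71227 CPM in females of the BnST.

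Some members varied very widely between birds. Rank 91, ENSCJPG00005009886, had the highest mean level of all members in the BnST and the Tn, whereas rank 5 had it in the hypothalamus. In the BnST it ran from 20.02 through a median of 19158 to 68479 CPM in males and from 143.6 through 7295 to 71227 CPM in females. In the Tn the males ran from 28.4 through 165.0 to 26807 CPM and the females from 10.3 through 87.0 to 10860 CPM. In the hypothalamus the males ran from 19.3 through 38.2 to 3232 CPM and the females from 9.78 through 30.2 to 511.4 CPM, and 12 of 20 males were above the female median. The sexes overlapped almost completely, and the male SD of 713.4 CPM in the hypothalamus exceeded the male mean of 212.5 CPM.

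Rank 136, ENSCJPG00005016433, varied in the same way at a lower level, with BnST medians of 262.9 CPM in males and 117.9 CPM in females. Its highest hypothalamic male, at 45.4 CPM, stood against a male median of 0.978 CPM and a female median of 0.619 CPM, and 14 of 20 males were above the female median. Ranks 91 and 136 were the 2 members with fewer than 15 males above the female median in some region. They were also the 2 members whose ratio turned below 0 when birds 21 to 50 were taken alone, with lowest ratios of -1.15 and -0.67. For these genes the mean ratio in the hypothalamus and the Tn rested on a few birds. Their place in the list was set by the lower ratio in the BnST, where most birds had high levels.

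The ratios of a gene in different regions lay close together, in members and in all genes past the floor alike. The range between the highest and the lowest of the 3 ratios had a median of 0.083 among members, against 0.091 over all genes past the floor. It was under 0.1 for 119 members (59.5%), against 55% of all genes, and at or above 0.2 for 19 (9.5%), against 12.5%. The hypothalamus held the highest of the 3 ratios for 88 members, the BnST for 61 and the Tn for 51, and the BnST held the lowest for 78. For these counts the shares over all genes are not given. In pairs of regions, the hypothalamic ratio exceeded that of the BnST for 111 members, against 7622 of the 12747 genes past the floor. It exceeded that of the Tn for 114 members, against 6861 genes, and the BnST exceeded the Tn for 94, against 5380. Across members, which share birds and libraries and were selected on these ratios, Pearson's r was 0.35 between hypothalamus and BnST, 0.75 between hypothalamus and Tn and 0.62 between BnST and Tn. Without the 5 members of widest range it was 0.62, 0.70 and 0.78, and over all genes past the floor it was 0.73, 0.78 and 0.80.

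Those 5 members were ranks 91, 92, 136, 187 and 189, each with a range of at least 0.3. Ranks 91 and 136 had lower ratios in the BnST, at 0.79 and 0.71, than in the hypothalamus, at 1.79 and 1.504, or the Tn, at 1.51 and 1.53. Rank 189 was the reverse, with 1.35 in the BnST, 1.13 in the Tn and 0.62 in the hypothalamus. Its BnST level ran from 8.77 through 33.4 to 128.8 CPM in males and from 5.13 through 13.1 to 59.8 CPM in females, a wider spread than in the hypothalamus, where males ran from 8.42 to 22.5 CPM and females from 6.61 to 15.9 CPM. Rank 187 fell from 1.07 in the hypothalamus to 0.64 in the BnST, and rank 92 from 1.10 to 0.79. Rank 92 was of low abundance and rests on few counts. Its male means were 3.04, 2.61 and 3.87 CPM in hypothalamus, BnST and Tn, and its female means 1.36, 1.47 and 1.89 CPM.

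**Figure D3:**
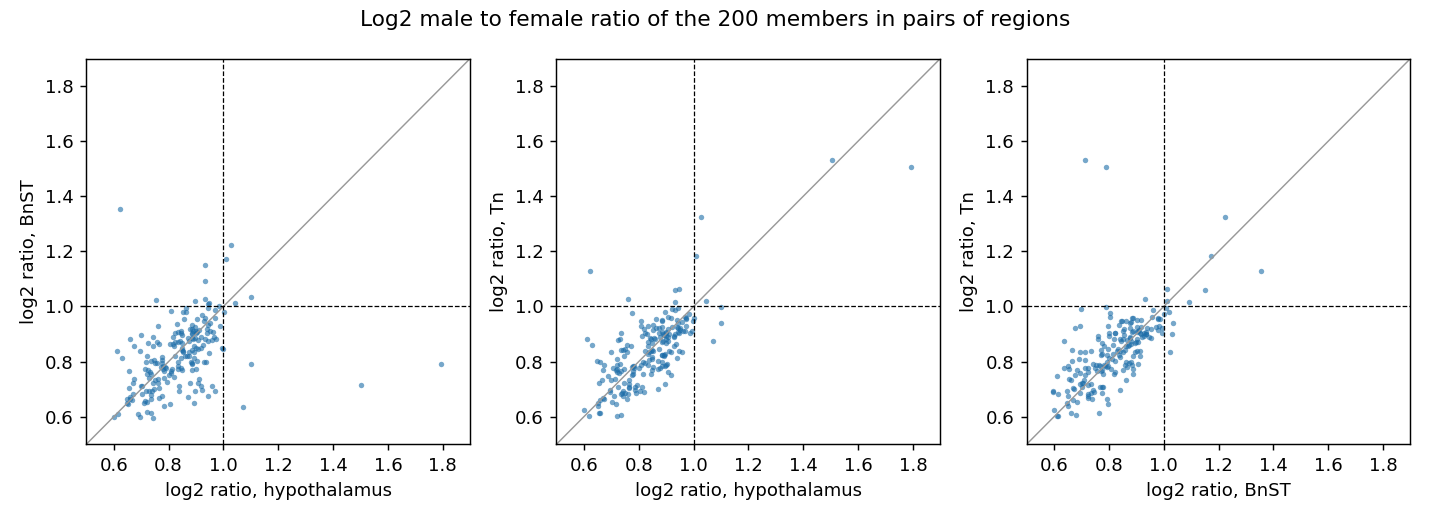
Log2 male to female ratio of the 200 members in each pair of regions; a point is a gene, the grey line marks equal ratios and the dashed lines mark 2-fold. Most points lie along the diagonal below 1, and the few far from it include ranks 91 and 136, with ratios of 1.79 and 1.504 in the hypothalamus and of 0.79 and 0.71 in the BnST.

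Bird by bird, the members separated males from females in every library but those of bird 17. The median over members of the log2 level against the female mean was 0.793 to 0.942 in hypothalamic libraries of males and -0.069 to 0.060 in those of females. It was 0.703 to 0.913 and -0.086 to 0.062 in the BnST, and 0.785 to 0.924 and -0.074 to 0.105 in the Tn. No male overlapped any female, a result that the choice of members on the sex ratio of these same birds fixes in large part. In the BnST bird 49 had 38 members at or below the female mean, against 7 in the next male.

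Bird 17 did not enter the ratios on which members were chosen. Why the rule left it out is not given, and members were chosen with earlier results of these data known. Its levels are therefore a description and not an independent check. Its median level against the female mean was 0.05, -0.03 and 0.04 in hypothalamus, BnST and Tn, within the female range in each region. It was below all 20 males in 168, 140 and 172 of the 200 members, and within the range of the 27 females in 179, 194 and 185. Shares over all genes are not given for these counts, so they describe members alone. A gene without a sex difference can also lie within the female range. For rank 5 it had 559.7, 622.1 and 646.8 CPM in hypothalamus, BnST and Tn, each below the lowest male. With bird 17 counted among the males as labelled, the median ratios were 0.81, 0.79 and 0.81, and no member had every male above every female in all 3 regions.

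**Figure D4:**
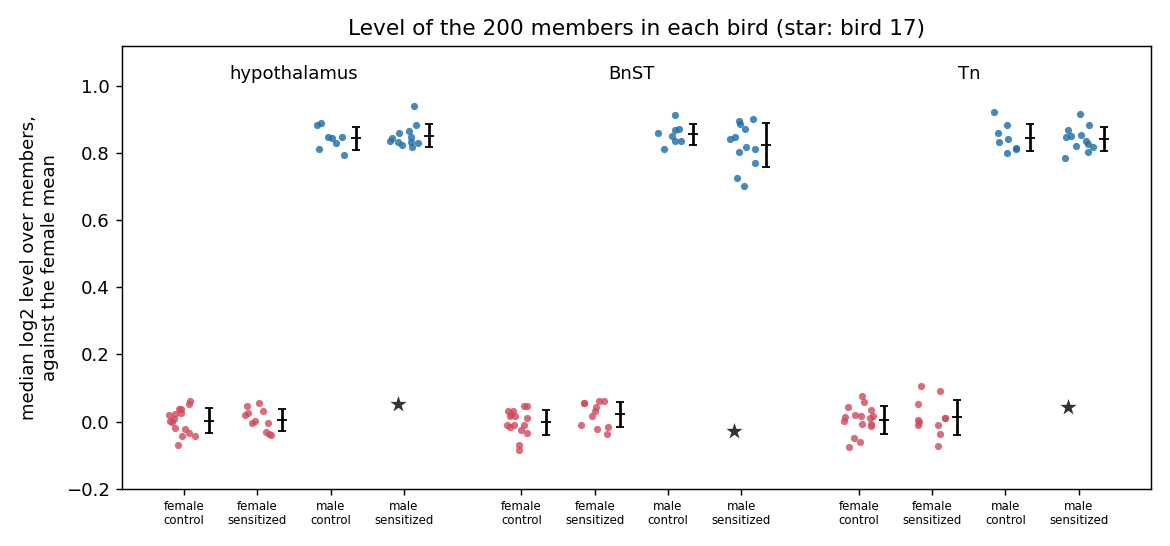
Median over the 200 members of the log2 level against the female mean, for each bird by region, sex and treatment; a point is a bird, the black bars give the mean ± SD without bird 17, and the star is bird 17. Males lie between 0.703 and 0.942 and females between -0.086 and 0.105, with bird 17 between -0.03 and 0.05.

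The sex ratio was similar in control and in sensitized birds. In control birds the median ratio was 0.83, 0.86 and 0.85 in hypothalamus, BnST and Tn, and in sensitized birds it was 0.84, 0.80 and 0.82. All 200 members were above 0 in both treatments and all 3 regions, which the choice of members favours. Birds numbered 1 to 20 gave 0.84, 0.81 and 0.85 and birds 21 to 50 gave 0.83, 0.84 and 0.85. The interaction of sex with treatment, a contrast that the rule did not use, was tested gene by gene with edgeR's quasi-likelihood test over all genes that passed its filter on low counts. All 200 members were tested, and none passed an adjusted p of 0.05 in any region, nor did any other gene.

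At an unadjusted p under 0.05 the interaction picked out 11 members (5.5%) in the hypothalamus, against 3.12% of the 15024 genes tested, 8 (4%) in the BnST, against 4.19% of 14957, and 7 (3.5%) in the Tn, against 3.04% of 14880. The member with the smallest p in the BnST was rank 184. Its mean BnST level was 7.36 ± 1.38 CPM in control males (SD, n = 8) and 5.89 ± 1.94 CPM in sensitized males (SD, n = 12), and 3.57 ± 0.935 CPM in control females (SD, n = 16) and 4.88 ± 1.28 CPM in sensitized females (SD, n = 11). All of these groups except control males and control females overlapped. The interaction was -0.74 ± 0.23 (SE) on the log2 scale, with an edgeR adjusted p of 0.986. In the hypothalamus the smallest p belonged to rank 136, whose interaction of 2.49 ± 1.06 (SE, adjusted p = 0.9999) turned to -0.60 with DESeq2.

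The sensitization treatment itself did not change the level of any member detectably. With sex as a covariate, edgeR called 3 of 14813 genes in the hypothalamus (0.0203%), 7 of 14741 in the BnST (0.0475%) and 0 of 14624 in the Tn, and no member was among them. At an unadjusted p under 0.05 there were 9 members (4.5%) in the hypothalamus, against 4.44% of all genes tested, 14 (7%) in the BnST, against 4.91%, and 13 (6.5%) in the Tn, against 4.6%. DESeq2's likelihood ratio test also called 0 members in each region. The median log2 fold change of members, sensitized over control, was 0.00, 0.03 and 0.02 in hypothalamus, BnST and Tn, beside 0.00, 0.01 and 0.00 for all genes, with a median SE per member of 0.055, 0.067 and 0.058.

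The smallest p for treatment in the BnST was that of rank 72, ENSCJPG00005012048. It had 80.7 ± 7.66 CPM in control females (SD, n = 16), 95.9 ± 17.6 in sensitized females (n = 11), 157.3 ± 23.3 in control males (n = 8) and 167.8 ± 44.8 in sensitized males (n = 12). The medians were 80.8 and 98.7 CPM in control and sensitized females but 154.9 and 151.1 CPM in the corresponding males. The highest sensitized male had 283.6 CPM. The ranges of control and sensitized birds overlapped within each sex, and the log2 fold change was 0.22 ± 0.080 (SE, edgeR adjusted p = 0.854). In the Tn it was rank 102, with 17.02 ± 2.77 and 14.96 ± 1.83 CPM in control and sensitized females and 30.98 ± 3.83 and 27.3 ± 2.59 CPM in the corresponding males. Its log2 fold change was -0.17 ± 0.056 (SE, adjusted p = 0.982). In the hypothalamus rank 92, a gene of low abundance, had a log2 fold change of -0.34 ± 0.14 (SE, adjusted p = 0.982).

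These values depended on sex being in the model. Males made up 12 of 23 sensitized birds and 8 of 24 control birds. In the fit of treatment alone the median log2 fold change of members was 0.16, 0.20 and 0.18 in hypothalamus, BnST and Tn, with 0 members called in each.

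**Figure D5:**
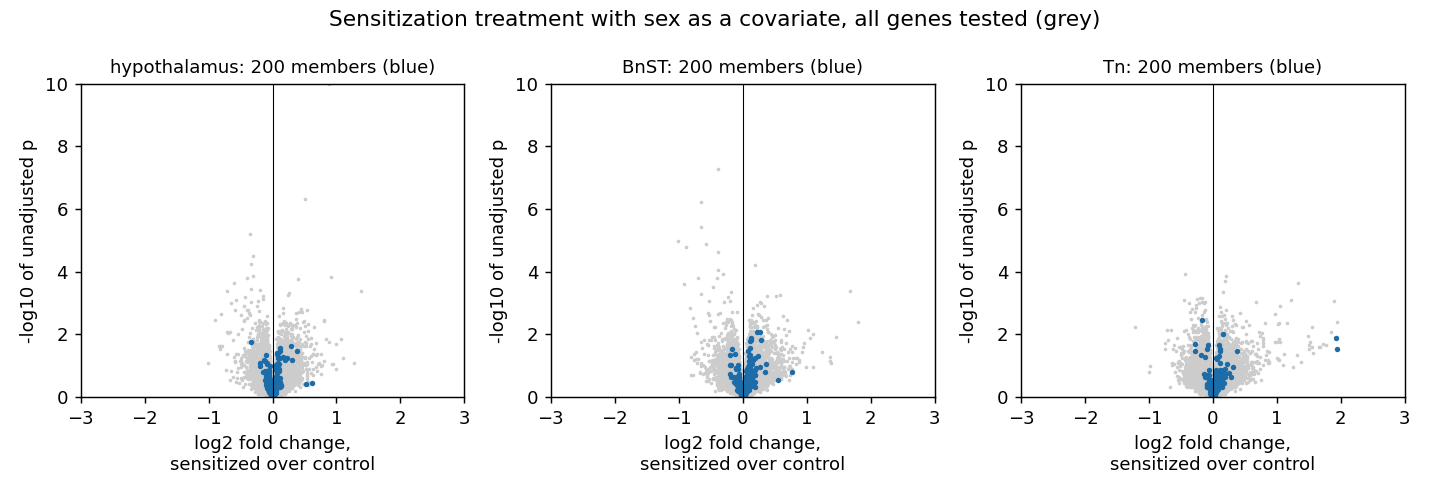
Log2 fold change of sensitized over control birds and -log10 of the unadjusted p from edgeR with sex as a covariate, for all genes tested (grey) and the 200 members (blue) in each region. Members cluster around medians of 0.00, 0.03 and 0.02, and none of them passed an adjusted p of 0.05.

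Birds are also labelled by a response class. Those in classes R or S were compared with those in classes NR or NS with sex and treatment as covariates, over 44 libraries in each region. No gene passed an adjusted p of 0.05 with edgeR in any region. At an unadjusted p under 0.05 there were 9 members (4.5%) in the hypothalamus, against 11.2% of 15068 genes tested, 5 (2.5%) in the BnST, against 2.08% of 14971, and 8 (4%) in the Tn, against 3% of 14955. DESeq2 called 8 genes in the hypothalamus, none of them members. The smallest p among members was that of rank 172 in the hypothalamus, at 2.97 ± 0.858 CPM in classes R and S (SD, n = 21) and 2.52 ± 1.08 CPM in classes NR and NS (SD, n = 23). The classes overlapped, and the log2 difference was 0.38 ± 0.13 (SE, edgeR adjusted p = 0.318).

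The level of many members differed between regions, and the number called depended on the model. In a fit of region alone 49 members passed an adjusted p of 0.05 between hypothalamus and BnST. Of these 34 were higher in the hypothalamus, against 29% of all genes tested, and 15 lower, against 29.7%. Between hypothalamus and Tn 79 members passed, with 48 higher (against 36.5% of all genes) and 31 lower (against 32.8%), and between BnST and Tn 48 passed, with 27 higher (against 31%) and 21 lower (against 29.2%). That fit left the sex difference, on which members were chosen, in the residual spread, and with sex as a covariate 120 members (60%), 144 (72%) and 124 (62%) passed in the 3 comparisons, against 59.4%, 69.7% and 60.9% of all genes tested. With the bird as a block, 127 members passed between hypothalamus and BnST, 73 higher (against 32.6% of all genes) and 54 lower (against 30.9%). Between hypothalamus and Tn 149 passed, 85 higher (against 39.2%) and 64 lower (against 33.8%), and between BnST and Tn 129 passed, 69 higher (against 35.1%) and 60 lower (against 29.6%). All 49, 79 and 48 members called without the block were called with it, in the same direction.

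Most of these differences were small, for members as for other genes. In the blocked fit 185, 177 and 186 of the 200 members differed by less than 0.5 on the log2 scale in the 3 comparisons. These were 92.5%, 88.5% and 93% of members, against 89.8%, 82.9% and 89.6% of the genes past the floor. Over all genes tested in that fit the shares were 85.1%, 77.2% and 84.2%. The highest mean level was in the hypothalamus for 114 members (57%), against 47.4% of all genes past the floor, in the Tn for 47 (23.5%), against 28.8%, and in the BnST for 39 (19.5%), against 23.8%. These shares were not tested. Rank 83, ENSCJPG00005012768, was highest in the Tn, with a median of 53.7 CPM over the 47 birds (range 21.4 to 112.5), against 28.5 in the BnST (12.4 to 73.0) and 16.1 in the hypothalamus (9.36 to 30.9). In the fit of region alone, which does not pair the libraries of a bird, its log2 difference, hypothalamus minus Tn, was -1.70 ± 0.11 (SE, edgeR adjusted p = 9.8e-28). Rank 55 followed the same order, with medians of 14.2, 7.07 and 4.38 CPM. Its difference in the same unpaired fit was -1.68 ± 0.12 (adjusted p = 3.43e-23).

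Rank 187, ENSCJPG00005011011, went the other way. Its median was 8.10 CPM in the hypothalamus (range 2.63 to 16.9), 4.63 in the BnST (1.43 to 9.65) and 2.58 in the Tn (0.548 to 6.05), with a difference, hypothalamus minus Tn, of 1.64 ± 0.15 (SE, edgeR adjusted p = 1.17e-17). Rank 1 was highest in the BnST, by 1.13 ± 0.16 over the hypothalamus and by 1.22 ± 0.19 over the Tn on the log2 scale. Ranks 91 and 136 showed the largest regional differences, at -7.25 ± 0.55 and -6.95 ± 0.44 for hypothalamus minus BnST (adjusted p = 1.24e-21 and 2.75e-26). All differences in this paragraph are from the fit of region alone, without pairing by bird.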

How the data were processed

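The authors punched the regions from frozen sections, prepared RNA libraries with the NEBNext Ultra kit and sequenced them on an Illumina instrument. Reads were aligned to the Japanese quail genome Coturnix_japonica_2.0 with HISAT2 and counted per Ensembl gene with HTSeq, and the deposited table holds these whole-number counts for 144 libraries. The submitters' processing notes also name CASAVA 1.8.2. The strand setting of the counting is not given in the sources used here, so reads of overlapping genes cannot be told apart. The study's methods divide the control birds between the sexes differently from the labels, whereas its results give the numbers of the labels, which were used.

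CPM were computed from each column total. Region, treatment, sex by treatment and response class were tested with edgeR 4.0.16 (TMM, filterByExpr with a minimum count of 10, robust quasi-likelihood test, Benjamini-Hochberg adjustment over all genes tested) in R 4.3.3. The fits were first tried on counts simulated from hypothalamic libraries and, for region, from hypothalamus and BnST without the block. No minimum recovery was required there of the interaction, and its power is not given here. Totals of 9664414 to 19640873 counts per library set the precision, and genes near the floor of 2 CPM rest on few counts. Each bird is a separate animal. Libraries of a bird in 2 regions pair by the animal: their deviations from the group means correlated with a median r of 0.48 (hypothalamus and BnST), 0.46 (hypothalamus and Tn) and 0.42 (BnST and Tn) over 47 birds. Alternatives were DESeq2 1.42.0, other size factors, no filter, other covariates, bird 17 included, bird 49 left out and, for the ratio, another pseudocount, average, floor or set of birds. Leaving out bird 49 (other than for treatment), sex as a covariate of region, the number series in the interaction, and the ratio within number series were chosen after seeing the data.

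Members named are the 10 highest ranked, ranks 198 to 200, the 3 genes ranked next, the 3 with the highest mean CPM over regions, the 5 of widest range between regions and, per test, up to 5 called members or else the member of smallest p. From these, those given with values were taken to keep the text short. The members and the lists were chosen with earlier results of these data known. Gene lists, cell type markers and the chromosome of members were not analysed here, since 0 identifiers of the table matched the RefSeq annotation of the species. No column of the table belonged to another series.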

Additional observations from a re-analysis of the deposited data

Results flagged for a closer look

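Among the 8 control males, a single library stood apart from the other 7 in 12 of the 87 combinations of a named member, or of the median level over members, with a region that were examined. Chance alone gives about 1 in 20 for a single combination. The combinations share birds, and some members were named for their range between regions or their smallest p. The 12 of 87 can therefore not be set against that rate. The values below are CPM.

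In the hypothalamus rank 1 was lowest in bird 21, at 20.5, against 28.7 in the next male. Rank 8 was highest in bird 30, at 20.5, against 16.05. Rank 83 was lowest in bird 10, at 21.2, against 25.1. Rank 172 was highest in bird 12, at 5.28, against 3.86, and rank 184 was lowest in bird 29, at 5.13, against 9.21.

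Ranks 91 and 136 were high in the same birds. In the hypothalamus bird 9 had 301.6 for rank 91, against 96.7 in the next male, and 4.06 for rank 136, against 1.92. In the Tn bird 11 had 6836 for rank 91, against 1883, and 115.3 for rank 136, against 38.2. In the BnST bird 9 had 62510 for rank 91, against 26104. Bird 11 was also highest in the Tn for rank 3, at 4.31 against 2.13, and bird 12 in the BnST for rank 10, at 12.03 against 8.32.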

How the results depend on the processing

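No member was called for treatment, its interaction with sex or response class under any of the 45 alternatives run over these 9 comparisons. Calls over all genes for treatment in the hypothalamus were 5 with DESeq2 and 5 without the filter, against 3, and in the BnST they were 4 without bird 49, against 7. Where 0 genes were called, response class in the hypothalamus gave 8 with DESeq2, 5 with sex as the only covariate and 3 with bird 17 included. Response class in the BnST gave 3 without the filter, and the interaction in the Tn gave 1 without the filter. With the bird as a block to pair the regions, 127, 149 and 129 members were called, and with sex as a covariate 120, 144 and 124, against 49, 79 and 48.

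With 1 CPM added the median ratios were 0.79, 0.76 and 0.76, 0 members reached 2-fold in all 3 regions and 7 in at least 1. Members at 2-fold in at least 1 region were 30 by medians, 34 in control birds, 33 in sensitized birds, 51 in birds 1 to 20 and 43 in birds 21 to 50, against 19. Of all genes past the floor at 2-fold in hypothalamus, BnST and Tn, members were 9 of 11, 24 of 38 and 18 of 25 in control birds. They were 19 of 20, 12 of 14 and 19 of 28 in sensitized birds. In birds 1 to 20 they were 24 of 35, 25 of 39 and 26 of 65, and in birds 21 to 50 they were 8 of 9, 26 of 32 and 14 of 14. The count at 2-fold in all 3 was 0 with bird 17 and in birds 21 to 50, against 3. Members with no overlap of the sexes in all 3 regions were 0 with bird 17, 119 in control birds and 120 in birds 1 to 20, against 71. Fewer birds leave less room for overlap, in members as in any gene. Shares over all genes are not given for these sets of birds, so the counts describe members alone. Chosen again, the list shared at least 169 of its 200 genes with the members. The lowest ratio of ranks 91 and 136 was -1.15 and -0.67 in birds 21 to 50, and the interaction of rank 136 in the hypothalamus was -0.60 with DESeq2, for which the cause was not tested. No other result changed its direction.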
